A study of Mus musculus with 6 samples.

Results

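The interleukin-33 (IL-33) receptor ST2 and its relatives of the IL-1 receptor family were examined in MC/9, a mouse mast cell line. The set held 10 genes of 49568 in the count table: Il1rl1 (ST2), Il33, Il1rap, Il1r1, Il18r1, Sigirr, Myd88, Irak1, Irak4 and Traf6. They were picked by gene symbol, with earlier results of these data known. Per the series' design text, mast cells were added to osteoblasts of the mouse line 7F2 on the day after these were seeded, and were collected for RNA sequencing after 24 h with rPTH at 10 nM. The control group (n = 3) was labelled as receiving no treatment and the rPTH group (n = 3) as receiving rPTH, which the labels do not spell out and which is taken to be a preparation of parathyroid hormone. A treatment protocol field names rPTH for all 6 samples, so the groups rest on the titles, source names and treatment characteristic. The labels state no difference in genotype, and each group is the same established line. They do not say whether control mast cells also shared the dish with osteoblasts, and nothing in them says that the replicates were separate cultures, so p-values here speak to the spread among these 6 libraries alone, and that spread may be technical.

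Receptors of this family pair a ligand-binding chain with an accessory chain, which brings their cytoplasmic TIR domains together. The TIR domains recruit the adaptor MyD88, which assembles the kinases IRAK4 and IRAK1, and these pass the signal to the ubiquitin ligase TRAF6 and on to NF-kB and the MAP kinases. Mast cells are known for high ST2 and respond to IL-33, an alarm cytokine released by damaged barrier and stromal cells, by making cytokines and chemokines without any need for antigen.

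ST2 is also known for a pair of alternative promoters, and RefSeq gives Il1rl1 a pair of starts 10059 bp apart on the plus strand of chromosome 1. The 250 bases before each start are shown because GATA2, a factor that mast cells need, has been reported to act on the promoter of the human gene. Capitals mark the GATA motif forms that were searched, on both strands. These were AGATAA, whose reverse complement is TTATCT, and TGATAA, whose reverse complement is TTATCA.
Il1rl1 distal start, chr1:40429320-40429569 (GRCm38.p6, plus strand): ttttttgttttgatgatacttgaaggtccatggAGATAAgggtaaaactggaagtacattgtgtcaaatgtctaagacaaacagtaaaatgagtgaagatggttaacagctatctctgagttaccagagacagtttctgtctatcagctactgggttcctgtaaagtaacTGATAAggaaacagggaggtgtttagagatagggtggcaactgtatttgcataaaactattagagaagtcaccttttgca
Il1rl1 proximal start, chr1:40439379-40439628 (GRCm38.p6, plus strand): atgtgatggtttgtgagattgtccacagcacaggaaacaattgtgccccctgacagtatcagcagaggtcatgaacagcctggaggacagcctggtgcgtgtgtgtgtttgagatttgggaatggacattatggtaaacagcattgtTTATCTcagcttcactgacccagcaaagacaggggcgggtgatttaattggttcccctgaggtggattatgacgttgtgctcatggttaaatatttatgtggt
The distal window held 2 matches, 217 and 80 bases before the start, and the proximal window held 1 match, 103 bases before the start. A match was present in 16.6% of 32851 windows of the same length in the RefSeq promoter table. The E-box forms CACATG, its reverse complement CATGTG and the palindrome CACGTG were absent from both windows, against a match in 17.6% of all windows. Other forms of the E-box and of the GATA motif were not searched. The distal window also holds the GATA forms AGATAG and TGATAG, counting both strands, left in lower case. The counts are per gene, so the use of either start, and of membrane or soluble ST2 transcripts, was not measured. Gata2 itself was abundant, at 1036 to 1166 CPM in the controls and 840 to 1034 CPM under rPTH, groups that just failed to overlap (log2 fold change -0.25 ± 0.20 SE, edgeR adjusted p = 0.655).

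Total counts ran from 22282095 to 24993606 in controls and from 30623648 to 33577977 with rPTH, so that every rPTH library was the deeper. CPM give a gene's counts relative to the library total after scaling by the TMM factor (edgeR), which was 0.81 in control 1 and 1.03 to 1.06 elsewhere. Control 1 stood apart: 33.2% of tested genes (36.3% of protein-coding ones) were lower there than in every other library and 39.3% were higher. Among protein-coding genes its level relative to the mean of the other 5 libraries had a median log2 difference of 0.81 for short, GC-rich genes (lowest tertile of length, highest tertile of GC content) and -0.67 for long, AT-rich genes. Of 11 mast cell markers 10 were high enough to test, and Mcpt4 had 0 to 4 counts per library. The summed level of the 11 in plain CPM (without the TMM factor) was 6827 to 6919 in controls and 5455 to 7175 with rPTH. With the TMM factor it was 8549, 6607 and 6612 CPM in the controls, against 5302, 6857 and 6521 CPM under rPTH. Of the 10 tested, 7 had a log2 fold change below 0 (median -0.23, against -0.09 for all tested genes). In 3 of them all rPTH libraries lay below all controls, against 8.46% of tested genes, and 0 had an edgeR adjusted p under 0.05. The 16 osteoblast and stromal markers, of which 13 were tested, summed to 1329 to 1536 plain CPM in controls and 1960 to 3034 CPM with rPTH, with Ibsp and the osteocalcin genes Bglap and Bglap2 at 0 to 5 counts. Macrophage markers (7 genes) summed to 3.9 to 5.64 CPM in controls and 4.65 to 5.55 CPM with rPTH, and lymphocyte markers (6 genes) to at most 0.546 CPM. Endothelial markers (4 genes) summed to 149 to 209.5 CPM and 152 to 204 CPM, nearly all of it Pecam1, with Cdh5 at 1 to 4 counts. In bulk RNA, fewer cells of a type and less RNA per cell cannot be told apart.

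With edgeR's quasi-likelihood test over 16696 genes, 0 genes (0%) had a Benjamini-Hochberg adjusted p under 0.05, and so 0 of the 9 members that passed the low-count filter were called; Il33 was too low to test. Before adjustment 1314 genes (7.87%) were under 0.05, 1.98% of tested genes with the higher level under rPTH and 5.89% with the lower, and so were 2 of the 9 tested members, Il1r1 (higher) and Sigirr (lower). In CPM the groups did not overlap in 16.8% of tested genes (8.35% with rPTH above, 8.46% with rPTH below) and in the same 2 of the 9 tested members. DESeq2 called 5 genes on the same counts (0.0299%) and the authors' deposited table called 11 genes (0.0707% of 15559), none of them a member. The log2 fold change lay above 0 for 6 of the 9 tested members and for 41.5% of tested genes, and its median was 0.18 for the members and -0.09 for all tested genes. Without control 1, 2 of the 9 lay above 0 (median -0.05; 43.4% of the genes tested then). With the trend on length and GC content taken out of each library, 4 of 9 did (median -0.01; 43.7% of genes). In both of these settings 0 of the 9 had an unadjusted edgeR p under 0.05. Over the other alternatives the number of members under 0.05 ran from 0 to 2.

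ST2 was by far the most abundant member. Values of single libraries are given in the order of replicates 1, 2 and 3. Il1rl1 had 536, 996 and 992 CPM in the controls, against 814, 1031 and 999 CPM under rPTH. Control 1 held the lowest value and rPTH 1 the next lowest, and the groups overlapped. The group means were 841 ± 264 and 948 ± 117 CPM (SD, n = 3 each), which is a log2 fold change of 0.17 ± 0.29 (SE; edgeR adjusted p = 0.805). Without control 1 the log2 fold change was -0.08 ± 0.13, and with the length and GC trend removed it was -0.01, so no direction can be given. The gene (ENSMUSG00000026069) spans chromosome 1 from 40429570 to 40465415 in GENCODE M21 on GRCm38 and shares no exon base with another gene.

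The accessory chain of ST2 and of the IL-1 receptor was likewise lowest in control 1 and next lowest in rPTH 1. Il1rap had 14.6, 32.5 and 35.2 CPM in the controls, against 29.7, 34.9 and 30.8 CPM under rPTH. The 5 libraries other than control 1 lay between 29.7 and 35.2 CPM, and the groups overlapped. Its log2 fold change was 0.21 ± 0.32 (SE; edgeR adjusted p = 0.788) and -0.10 without control 1. A ratio within a library does not depend on library scaling: per unit of exon length there were 60.5, 50.5 and 46.5 Il1rl1 transcripts for each Il1rap transcript in the controls, against 45.2, 48.7 and 53.4 under rPTH. The mean ratio was 52.5 ± 7.24 in controls and 49.1 ± 4.15 with rPTH (SD, n = 3 each; exact two-sided permutation p = 0.6, where 0.1 is the smallest possible). The size of the ratio depends on the length used: by the longest transcript, which for Il1rap has 4520 bases against 11360 of merged exons, it was 27.2 ± 3.74 and 25.4 ± 2.15 (an alternative added after seeing the data). In control 1, where both genes were lowest, the ratio was the highest of the 6 libraries. Il1rap (ENSMUSG00000022514) spans chromosome 16 from 26581704 to 26730117, and 552 of its exon bases overlap the antisense gene Gm20319; whether counting used strand was not given in the sources used here.

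**Figure D1:**
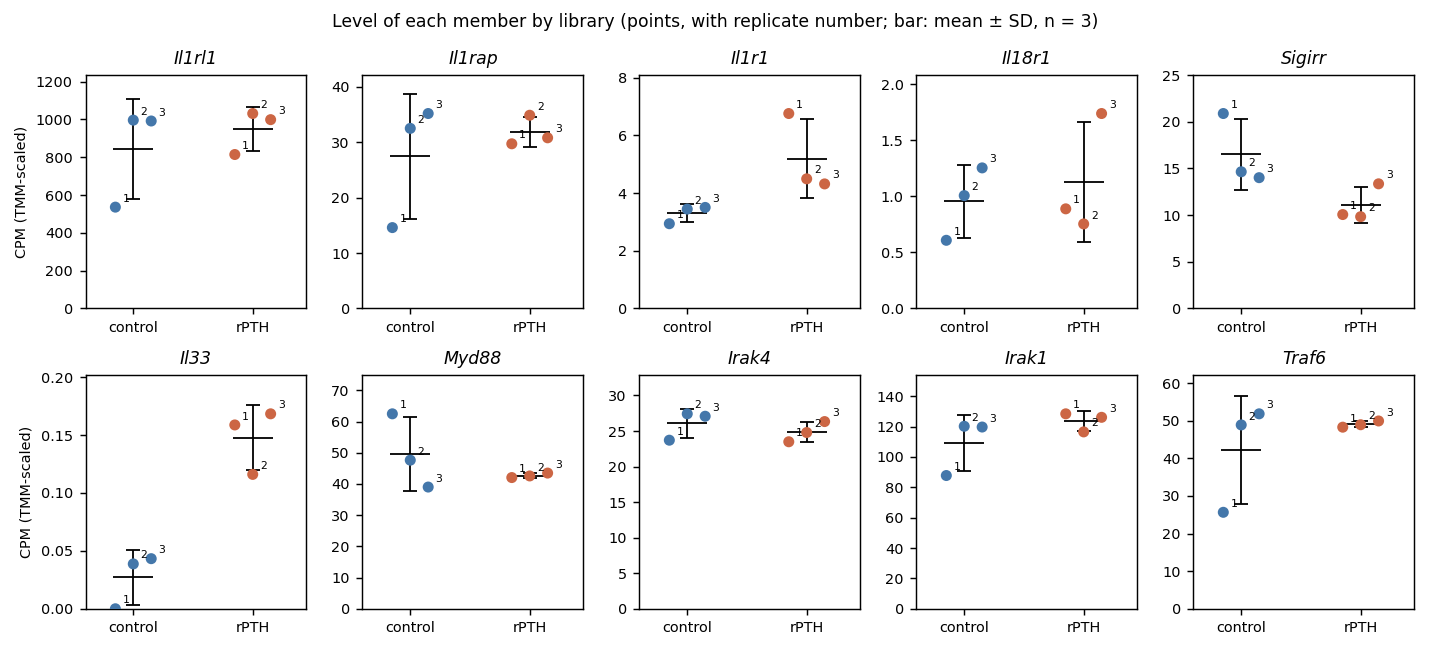
Level of each of the 10 members in TMM-scaled CPM (vertical axes, each from 0) in 3 control (blue) and 3 rPTH (orange) libraries, with replicate numbers beside the points and bars for mean ± SD. Control 1 is the lowest library for Il1rl1, Il1rap, Il1r1, Il18r1, Irak1 and Traf6 and the highest for Sigirr and Myd88; the groups are apart for Il1r1, Sigirr and Il33.

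The IL-1 receptor was low, and its groups stood apart without passing the adjusted test. Il1r1 had 2.94, 3.45 and 3.5 CPM in the controls, against 6.76, 4.5 and 4.32 CPM under rPTH, from 58 to 213 counts. All 3 rPTH libraries lay above all 3 controls, and rPTH 1 was the highest. The means were 3.3 ± 0.311 and 5.19 ± 1.36 CPM (SD, n = 3 each), and the exact two-sided permutation p was 0.1, the smallest possible. The log2 fold change of 0.65 ± 0.27 did not pass (SE; edgeR adjusted p = 0.619). The authors' deposited table gave a log2 fold change of 0.63 (p = 0.0181, adjusted p = 0.283). Without rPTH 1 the log2 fold change was 0.42 ± 0.27 (adjusted p = 0.922). With the length and GC trend removed it was 0.45 ± 0.24 (adjusted p = 0.784). Over all 15 alternatives it stayed above 0, from 0.42 to 0.78, with adjusted p from 0.308 to 0.922.

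Il1r1 and the summed osteoblast and stromal markers were both highest in rPTH 1 and both lower in every control than in every rPTH library. The markers summed to 1329, 1536 and 1507 plain CPM in the controls, against 3034, 1960 and 2042 CPM under rPTH, and in plain CPM both were lowest in control 1. With the TMM factor the sums were 1642, 1487 and 1453 CPM in the controls, against 2949, 1873 and 1923 CPM under rPTH, so that control 1 was then the highest control for the markers and the lowest for Il1r1. In plain CPM the largest parts of the sum in every library were Spp1 and Fn1. They had 616 and 197 CPM in control 1, against 871 and 1053 CPM in rPTH 1. All 13 tested markers lay above 0 on the log2 scale (median 0.57), although 0 were called. Set per 1000 CPM of these markers, a scaling chosen after seeing the data, Il1r1 had 1.79, 2.32 and 2.41 CPM in the controls, against 2.29, 2.4 and 2.25 CPM under rPTH. On that scale the groups overlapped, with means of 2.17 ± 0.335 and 2.31 ± 0.0789 (SD, n = 3 each; exact two-sided permutation p = 0.9). The marker sum was itself higher in every rPTH library than in any control, so this scaling lowers rPTH against control for every gene. The overlap and its p therefore cannot show which cells the Il1r1 RNA came from. The same limit holds for the other genes set on this scale below. The part of stromal RNA in the Il1r1 level was not tested. Il1r1 (ENSMUSG00000026072) spans chromosome 1 from 40225080 to 40317257.

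**Figure D2:**
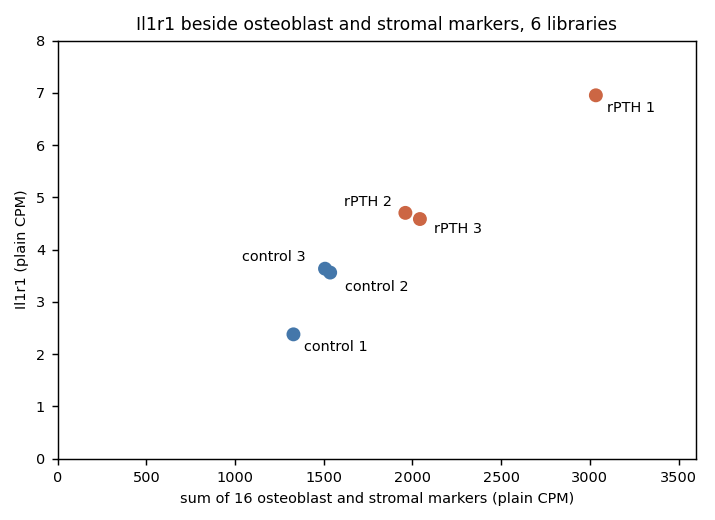
Il1r1 level (vertical axis, plain CPM) against the summed level of 16 osteoblast and stromal markers (horizontal axis, plain CPM) in each of the 6 libraries, controls in blue and rPTH in orange. The library with the highest marker sum, rPTH 1 at 3034 CPM, has the highest Il1r1 at 6.95 CPM, and control 1 is lowest on both axes; with TMM scaling control 1 would instead have the highest marker sum of the controls, at 1642 CPM.

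The ligand-binding chain of the IL-18 receptor was near the limit of what the counts resolve. Il18r1 had 12, 26 and 29 counts in the controls, against 28, 26 and 62 counts under rPTH, or 0.608 to 1.25 CPM and 0.754 to 1.74 CPM. Only rPTH 3 stood above the controls, and the groups overlapped. The log2 fold change was 0.23 ± 0.46 (SE; edgeR adjusted p = 0.835) and -0.22 without rPTH 3. Its accessory chain was far higher: Il18rap averaged 56.8 ± 13.6 and 60.0 ± 4.99 CPM in the control and rPTH groups (SD, n = 3 each; log2 fold change 0.08 ± 0.21 SE, adjusted p = 0.876). Per unit of length Il18rap was at 17.1 ± 7.41 TPM and Il18r1 at 0.409 ± 0.207 TPM in controls.

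These receptor genes lie side by side on the plus strand of chromosome 1, in the order Il1r2, Il1r1, Il1rl2, Il1rl1, Il18r1 and Il18rap, and their levels differed sharply between neighbours. Il18r1 (ENSMUSG00000026070, 40465552 to 40500854) starts 136 bp after Il1rl1 ends. Over the 6 libraries Il1rl1 averaged 895 CPM, Il18rap 58.4, Il1r1 4.24, Il18r1 1.04, Il1rl2 0.114 and Il1r2 0.0216 CPM. Il1r2, a decoy receptor for IL-1, had 3 counts in control 3 and 0 in the other 5 libraries, where a count of 0 allows up to 0.0893 to 0.123 CPM. Il1rl2, the IL-36 receptor, had 0 to 8 counts.

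SIGIRR, a receptor of the family that restrains IL-1 and Toll-like receptor signalling, was the only tested member with all rPTH libraries below all controls in CPM. Sigirr had 20.9, 14.6 and 14.0 CPM in the controls, against 10.1, 9.83 and 13.4 CPM under rPTH. The gap between the groups was small, from 13.4 CPM in rPTH 3 to 14.0 CPM in control 3, and control 1 was the highest library. Per unit of exon length the groups overlapped, at 9.43, 11.3 and 9.98 TPM in the controls and 7.92, 7.79 and 10.8 TPM under rPTH. The means were 16.5 ± 3.79 and 11.1 ± 1.97 CPM (SD, n = 3 each), with an exact two-sided permutation p of 0.1, the smallest possible. The log2 fold change of -0.57 ± 0.24 did not pass (SE; edgeR adjusted p = 0.619). Without control 1 it was -0.38 ± 0.18 (adjusted p = 0.407) and with the length and GC trend removed -0.38 ± 0.18 (adjusted p = 0.784). Over all 15 alternatives it stayed below 0, from -0.73 to -0.38. In the authors' deposited table it was -0.44 (p = 0.0653, adjusted p = 0.499). Sigirr (ENSMUSG00000025494) lies on the minus strand of chromosome 7 from 141091175 to 141100572 and is the most GC-rich member, with 57.2% GC in its longest transcript.

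The transcript of the ligand IL-33 was at the limit of detection. Il33 had 0, 1 and 1 counts in the controls, against 5, 4 and 6 counts under rPTH. Each rPTH library held more than any control, and the comparison rests on 2 control and 15 rPTH counts. Relative to total counts the rPTH rate was 5.53 times the control rate, with a 95% exact Poisson interval from 1.29 to 49.9 that covers counting error only. Leaving out single libraries gave ratios of 3.65 to 7.62. The exact two-sided permutation test gave p = 0.1, the smallest that 3 against 3 libraries can give, and edgeR without the low-count filter gave p = 0.0408 with an adjusted p of 0.744; in that fit 1.99% of genes were under 0.05 with the higher level under rPTH. Per 1000 CPM of osteoblast and stromal markers Il33 stood at 0, 0.026 and 0.0298 CPM in the controls and 0.0538, 0.0619 and 0.0875 CPM with rPTH, so the groups did not overlap on that scale either. Il33 (ENSMUSG00000024810) spans chromosome 19 from 29925114 to 29960718.

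The shared signalling chain below the receptors was present in every library. The adaptor gene Myd88 had 62.5, 47.6 and 39.0 CPM in the controls, against 42.1, 42.6 and 43.5 CPM under rPTH. The rPTH libraries lay within 1.5 CPM of each other and inside the range of the controls, of which control 1 was the highest. The log2 fold change was -0.22 ± 0.20 (SE; edgeR adjusted p = 0.679) and -0.03 without control 1. Myd88 (ENSMUSG00000032508, chromosome 9 from 119335934 to 119341411, minus strand) shares 290 exon bases with Acaa1a on the other strand.

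Irak4, whose kinase is the first to join the adaptor, had 23.7, 27.4 and 27.1 CPM in the controls, against 23.5, 24.8 and 26.3 CPM under rPTH. The groups overlapped, and its log2 fold change of -0.07 ± 0.15 was the closest to 0 among the tested members (SE; edgeR adjusted p = 0.854). Irak1, the kinase that IRAK4 activates, had 87.8, 120.2 and 119.7 CPM in the controls, against 128, 116 and 126 CPM under rPTH. Apart from control 1 its libraries were close together, and the groups overlapped (log2 fold change 0.18 ± 0.18 SE, adjusted p = 0.697; 0.03 without control 1). Per unit of length there were 3.94, 4.67 and 4.71 Irak1 transcripts for each Irak4 transcript in the controls and 5.82, 5.0 and 5.1 with rPTH. These ratios did not overlap between the groups (4.44 ± 0.432 and 5.31 ± 0.447, SD, n = 3 each), a description only, since this ratio was picked from several after its values were seen.

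Traf6, the ubiquitin ligase gene, had 25.6, 48.9 and 51.8 CPM in the controls, against 48.3, 48.9 and 49.9 CPM under rPTH. Its 5 libraries other than control 1 fell between 48.3 and 51.8 CPM. With all libraries its log2 fold change was 0.22 ± 0.27 (SE; edgeR adjusted p = 0.743) and -0.05 ± 0.08 without control 1. Irak4 (ENSMUSG00000059883) spans chromosome 15 from 94543643 to 94581815 and shares 395 exon bases with Twf1 on the other strand. Irak1 (ENSMUSG00000031392) lies on the X chromosome from 74013914 to 74023918, minus strand, where its exons hold the microRNA genes Mir5132 and Mir718, and Traf6 (ENSMUSG00000027164) on chromosome 2 from 101678429 to 101701669.

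**Figure D3:**
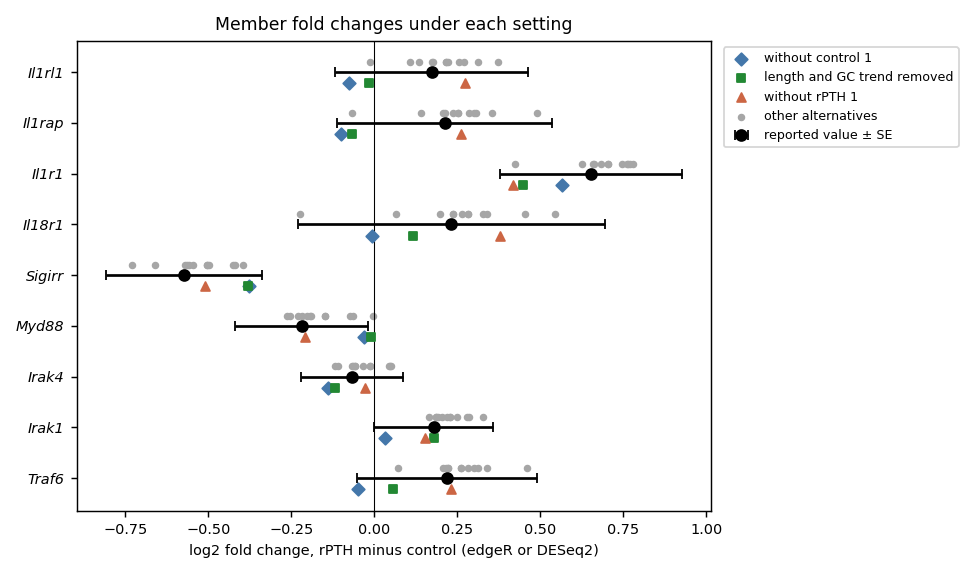
Log2 fold change (horizontal axis, rPTH minus control) of the 9 tested members, with the reported value ± SE in black, selected alternatives as coloured symbols and the others in grey. Il1r1 and Irak1 stay above 0 and Sigirr and Myd88 below 0 in every setting, Irak1 by as little as 0.032 and Myd88 by 0.005. Il1rl1, Il1rap, Il18r1 and Traf6 lie below 0 without control 1.

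Control 1 deviated from the other libraries in both directions among the members. Control 1 was 0.77 above the mean of the other 5 libraries in log2 CPM for Sigirr (3043 bp of merged exons, 57.2% GC) and 0.54 above for Myd88 (2576 bp, 53.5% GC). For Il1rap, the longest member (11360 bp, 42.1% GC), it was at -1.15, and for Traf6 (7883 bp) at -0.95. Il1rl1 (6894 bp, 43.4% GC) was at -0.85, Il18r1 at -0.77, and Il1r1 at -0.56. Irak1 (4716 bp, 52.8% GC) was at -0.48, although protein-coding genes of its class, with middle length and high GC, had a median of 0.19. Irak4 (5021 bp, 49.0% GC) was at -0.12, against a median of 0.09 for genes of middle length and middle GC. Of the 9 tested members 6 were lower in control 1 than in every other library, against 33.2% of all tested genes.

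**Figure D4:**
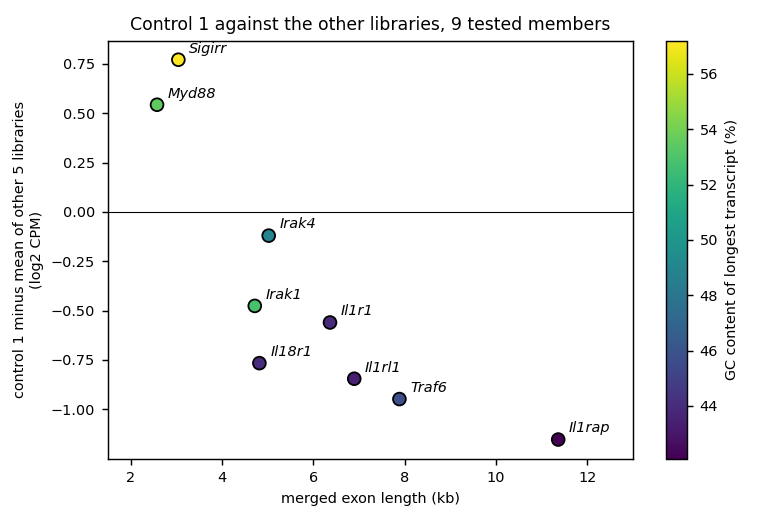
Control 1 minus the mean of the other 5 libraries (vertical axis, log2 CPM) against merged exon length (horizontal axis, kb) for the 9 tested members, coloured by GC content. The shortest members, Sigirr and Myd88, lie above 0 and the longest, Il1rap, lies lowest at -1.15.

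The order of the members was compared per unit of exon length, as TPM. Differences between the groups can depend on this choice. The means of Myd88 and Irak4 were lower with rPTH in CPM but higher with rPTH in TPM. Traf6 had 4.47 to 14.5 TPM in controls and 14.7 to 15.5 TPM with rPTH, so its groups overlapped in CPM but not in TPM. The share of all genes whose groups do not overlap in TPM was not computed. Mean TPM was higher with rPTH for every member but Sigirr. Il1rl1 led with 252 ± 126.5 TPM in controls and 333 ± 43.5 TPM with rPTH (SD, n = 3 each), above 98.6% of 19995 detected protein-coding genes. Irak1 (46.8 ± 18.5 and 63.4 ± 3.35 TPM) and Myd88 (36.5 ± 5.89 and 40.1 ± 1.18 TPM) came next; their ranges overlapped, with Irak1 the higher in 5 of 6 libraries. Traf6 (11.1 ± 5.72 and 15.05 ± 0.44 TPM), Irak4 (10.3 ± 3.36 and 12.0 ± 0.834 TPM) and Sigirr (10.2 ± 0.936 and 8.82 ± 1.68 TPM) formed a group whose ranges overlapped. Il1rap followed at 5.05 ± 2.85 and 6.77 ± 0.579 TPM, below Sigirr in 6 of 6 libraries. Il1r1 (1.03 ± 0.346 and 1.97 ± 0.497 TPM) and Il18r1 (0.409 ± 0.207 and 0.568 ± 0.276 TPM) kept that order in 6 of 6 libraries although their ranges overlapped, and Il33 was last at 0.0213 ± 0.0184 and 0.124 ± 0.024 TPM. This middle order depends on the length used. With the longest annotated transcript in place of merged exons, Il1rap had 10.7 TPM in controls, still below Sigirr at 13.2 TPM, but 14.2 TPM with rPTH, above Sigirr at 11.3 TPM. On that scale Sigirr also passed Irak4 (12.7 TPM) and Traf6 (11.9 TPM) in controls.

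**Figure D5:**
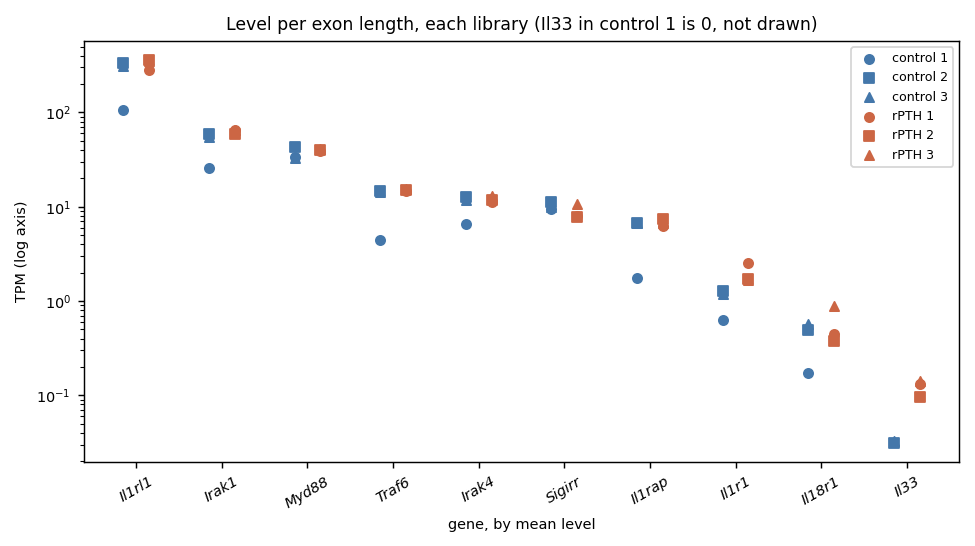
Level per exon length (vertical axis, TPM, log scale) of each member in each library, ordered by mean level, controls in blue and rPTH in orange. Il1rl1 lies above every other member in all 6 libraries and Il33 below; control 1 (blue circles) is low for Il1rl1, Irak1, Traf6, Irak4, Il1rap, Il1r1 and Il18r1.

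By Pearson correlation of log2 CPM over the 6 libraries, the protein-coding genes of at least 5 CPM most like Il1rl1 were Gphn (r = 0.998), Rab27b (0.998), Mitf (0.998), Ccnd2 (0.998) and Pik3cg (0.997). The points share the low value of control 1, and 450 of 9829 candidate genes had r above 0.95, so the order among them is a description of these libraries only. Mitf, a transcription factor of the mast cell lineage, had 52.2 CPM in control 1 against 75.5 to 91.8 CPM elsewhere. Among the members, Il1rap (r = 0.97) and Traf6 (0.95) were most like Il1rl1.

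Other ligands of the family were low or absent. Of 10 further ligands and ligand-binding proteins 4 were tested, all 4 with a log2 fold change above 0 (median 0.29) and 0 called. Il1rn, which encodes the IL-1 receptor antagonist, had 0.811, 0.658 and 0.476 CPM in the controls, against 1.21, 0.986 and 1.29 CPM under rPTH. The groups did not overlap, and the log2 fold change was 0.84 ± 0.35 (SE; edgeR adjusted p = 0.619). Per 1000 CPM of stromal markers its groups overlapped, at 0.328 to 0.494 CPM in controls and 0.409 to 0.671 CPM with rPTH. Il18bp, a soluble inhibitor of IL-18, had 7.1 ± 1.3 and 7.7 ± 1.17 CPM, and Il1a 1.94 ± 0.562 and 2.56 ± 0.981 CPM (SD, n = 3 each). The IL-36 genes Il36a and Il36b, listed as Il1f6 and Il1f8, had 0 counts in all 6 libraries.

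The other adaptors and kinases next to the receptors were spread evenly about 0: of 20 tested genes 10 lay above and 10 below 0 (median log2 fold change 0.00), and 0 reached an unadjusted p under 0.05. The most abundant were Tab2 (232 ± 69.7 and 261 ± 4.82 CPM), which links TRAF6 to the kinase TAK1, Map3k7, which encodes TAK1 (203 ± 44.9 and 226 ± 6.67 CPM), and the ubiquitin-conjugating enzyme gene Ube2n (125 ± 25.7 and 125 ± 9.97 CPM; SD, n = 3 each). The NF-kB and MAP kinase arm divided the same way, with 14 of 28 genes above 0 (median 0.00) and 0 at an unadjusted p under 0.05. Its most abundant genes were the kinases Map2k3 (170 ± 53.9 and 148 ± 9.73 CPM), Mapkapk2 (152 ± 34.8 and 139 ± 3.42 CPM) and Mapk14, which encodes p38 alpha (136 ± 8.01 and 144 ± 3.9 CPM).

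Toll-like receptors, which mostly use the same adaptor, had 4 of 6 tested genes above 0 (median log2 fold change 0.48), with 3 at an unadjusted p under 0.05 and 0 called. Tlr3, a sensor of double-stranded RNA that signals without MyD88, had 3.6, 3.33 and 4.89 CPM in the controls, against 10.6, 6.64 and 7.52 CPM under rPTH. Its groups did not overlap (log2 fold change 1.06 ± 0.28 SE; edgeR adjusted p = 0.619). Tlr4, the endotoxin receptor, had 7.08 ± 2.64 and 13.5 ± 3.62 CPM and Tlr7, a sensor of single-stranded RNA, 3.85 ± 0.793 and 7.03 ± 2 CPM (SD, n = 3 each; adjusted p = 0.619 for both). Tlr2 (13.5 ± 1.97 and 14.5 ± 2.11 CPM) and Tlr6 (13.9 ± 1.77 and 13.6 ± 0.461 CPM) differed by less than their spread. Like the stromal markers, Tlr3, Tlr4 and Tlr7 were highest in rPTH 1; per 1000 CPM of those markers Tlr4 had 2.72 to 6.7 CPM in controls and 5.34 to 6.87 CPM with rPTH, which overlap, as did Tlr7 (1.79 to 2.94 and 2.89 to 3.33 CPM), while Tlr3 had 2.19 to 3.36 and 3.55 to 3.91 CPM, which do not.

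Of 24 genes that mast cells are known to raise on IL-33 exposure 18 were tested and 0 were called. Their log2 fold change was above 0 for 6 of 18, against 41.5% of all tested genes, with a median of -0.22 against -0.09. Most genes below 0 were highest in control 1, such as Il4 (16.4 CPM, against at most 10.3 elsewhere) and Ccl2 (512 against at most 351). Tnf, Ccl1, Dusp1 and Socs3 were below 0 without being highest there. No value without control 1 is given for this list. Ptgs2, the inducible prostaglandin synthase gene, had 46.1, 65.7 and 75.1 CPM in the controls, against 145, 102 and 79.6 CPM under rPTH, a log2 fold change of 0.80 ± 0.28 (SE; edgeR adjusted p = 0.619), with groups that did not overlap. Per 1000 CPM of stromal markers it had 28.1 to 51.7 CPM in controls and 41.4 to 54.5 CPM with rPTH, which overlap. The most abundant others were the chemokine gene Ccl2 (377 ± 117 and 335 ± 14.2 CPM) and the growth factor gene Csf1 (319 ± 66.8 and 382 ± 93.3 CPM; SD, n = 3 each).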

How the data were processed

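RNA of MC/9 mast cells was sequenced in 3 control and 3 rPTH libraries. The authors deposited whole-number counts per gene with no normalization, which were the input here. Per the submitters' processing notes, which give no roles, the named software is STAR 2.5.2b, Trimmomatic 0.36, featureCounts of Subread 1.5.0p3, DESeq2 1.12.4 and R 3.3.0; builds GRCm38.p5 and mm9 are both named. The authors' deposited comparison table holds log2 fold changes with p-values, quoted as such.

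Counts were fitted with edgeR 4.0.16 in R 4.3.3 (robust quasi-likelihood test, TMM, filterByExpr with a minimum count of 10, Benjamini-Hochberg over all tested genes, threshold 0.05); DESeq2 1.42.0 was an alternative. The script was tested on simulated data. TPM used merged exon lengths of GENCODE M21; 2328 symbols without a match (1.33% of counts) were left out. The length and GC trend was fitted per library with natural splines (4 degrees of freedom each). Promoter windows came from RefSeq (GRCm38.p6), which held 9 of the 10 members. A count of 0 allows up to 3 counts, for counting error only. The labels name no molecular identifiers. Exact permutation tests used log2(CPM + 0.5) for single genes and the plain ratios otherwise.

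The members and lists were chosen with earlier results of these data known. From each of the companion lists (other ligands, other receptors, adaptors and kinases, Toll-like receptors, the NF-kB and MAP kinase arm, IL-33 response genes), but not from the marker lists, the text names the 3 tested genes with the highest mean and up to 3 with the smallest unadjusted p under 0.05; for Il1rl1 it names the 5 most correlated genes.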

Additional observations from a re-analysis of the deposited data

How the results depend on the processing

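Over 15 alternatives no member was called. The number of genes called was 0 in all of them except DESeq2, which called 5 (Pde8a, Olfr56, Gm11694, Thbs2 and Gm7079, named after their values were seen). The 9 tested members gave 135 values, of which 123 kept the direction and side of the threshold and 12 changed sign. Without control 1 the log2 fold change was -0.078 for Il1rl1, -0.101 for Il1rap, -0.006 for Il18r1 and -0.048 for Traf6, the lowest value of each without single libraries except for Il18r1 (-0.223 without rPTH 3); it was -0.141 for Irak4. The highest were without control 3, at 0.373, 0.489, 0.544 and 0.459 for the first 4 and 0.045 for Irak4. With each library's length and GC trend removed, that of Il1rl1 was -0.015 and that of Il1rap -0.069; adding the replicate block to this gave -0.014 and -0.069. That of Irak4 was 0.05 without the low-count filter and 0.046 with total counts and no scaling factor (added after seeing the data). Apart from the libraries left out, the cause was not tested. The mean level of Il1rl1 was 292.5 TPM, 493.1 TPM relative to protein-coding genes only, and 278.9 to 329.7 TPM without single libraries.

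The median log2 fold change over all tested genes was -0.087, and 0.041 with total counts. The number of genes at an unadjusted p under 0.05 was 1314 (25.2% higher with rPTH). It was 2377 without the filter (32%), 620 among protein-coding genes (66.9%), 809 with the trend removed (53.4%), 446 with the trend removed and the replicate block (69.3%), and 1187 with total counts (43.3%). Without single libraries it ran from 272 (rPTH 1) to 2165 (control 1). The deviations of same-numbered libraries had correlations of -0.13, -0.32 and 0.14, and those of differently numbered libraries ran from -0.27 to 0.35. With 3 libraries per group these values cannot tell whether the numbers pair the samples. The replicate block gave 525 genes at an unadjusted p under 0.05 and 0 calls. Low counts limit statements on Il33 and Il18r1.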

Other observations

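Csf2, which encodes the growth factor GM-CSF and was on the list of genes that respond to IL-33 but was too low to test, had 1, 2 and 1 counts in control 1, 2 and 3 and 8 counts in each rPTH library; it was named after its values were seen. Relative to total counts the rPTH rate was 4.43 times the control rate, with a 95% exact Poisson interval from 1.52 to 17.5 for counting error only. Without the low-count filter edgeR gave an adjusted p of 0.722. The type 2 cytokine genes of that list did not show this pattern. Il4 averaged 11.1 ± 4.92 and 7.25 ± 1.78 CPM in the control and rPTH groups (SD, n = 3 each), with overlapping groups and a log2 fold change of -0.61 (edgeR adjusted p = 0.628). Its highest library was control 1, at 16.4 CPM, against 5.27 to 10.3 CPM elsewhere. Il13 averaged 7.87 ± 1.83 and 6.57 ± 1.95 CPM in the control and rPTH groups (SD, n = 3 each), Il5 had 1 to 3 counts per library and Il9 had 0 in all 6.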
